A study of Arabidopsis thaliana with 8 samples.

Results

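The tau and phi glutathione transferases of Arabidopsis thaliana were followed through a 4 h exposure of roots to the drug mebendazole (MBZ). The members were the 41 rows of the count table whose locus identifiers belong to GSTU1 to GSTU28 (28 tau genes) and GSTF2 to GSTF14 (13 phi genes), out of 33602 rows. The rule picks genes by name, but the family was chosen with earlier results of these data known, so its shares below are descriptions. Of the 41 genes, 39 had enough counts to be tested. The exceptions were GSTU15 (AT1G59670), with 2 to 6 counts in each MBZ library and 2 to 6 in each DMSO library, and GSTF5 (AT1G02940), with 0 counts in every MBZ library and at most 3 in a DMSO library, where a count of 0 allows up to 3.

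RNA was sequenced from roots of 14-day-old Col-0 seedlings, Col-0 being the usual reference accession. Of the 8 samples, 4 came from seedlings moved to plates with 10 µM MBZ in dimethyl sulfoxide (DMSO), and 4 from seedlings moved to plates with DMSO alone, the solvent. Roots of both groups were taken 4 h after the transfer. All seedlings had grown on DMSO plates before the transfer, so the solvent is common to the groups. Mebendazole is a benzimidazole used in medicine against parasitic worms, whose tubulin it binds. The labels do not say that the 4 samples of a group were separate plates or cultures, so the p-values below measure the spread between these samples, which may be technical. Whole roots were sampled, so fewer cells of a type and less RNA per cell cannot be told apart.

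Glutathione transferases are enzymes, mostly soluble dimers, that join the tripeptide glutathione to electrophilic compounds or bind small molecules without reacting with them. The tau and phi classes are the large plant classes. They are known for detoxifying herbicides and other foreign compounds, and some members act in the synthesis or transport of glucosinolates, camalexin and flavonoid pigments. Conjugates formed in the cytosol are carried into the vacuole by ABCC transporters. Many tau and phi genes stand side by side in tandem arrays that arose by duplication. Several of them are induced by xenobiotics through TGA transcription factors, which bind the sequence TGACG, and their partner SCL14.

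Total counts ran from 39807931 to 54818801 in the MBZ libraries and from 38042437 to 53588168 in the DMSO libraries, and intervals and floors drawn from them cover counting error only. Pearson correlations of log2 levels across genes, which are not independent replicates, were 0.9962 to 0.997 within groups and 0.9669 to 0.9682 between groups. The 8 root marker genes were all detected, with summed levels of 8884 to 8904 CPM in MBZ and 14175 to 14410.1 CPM in DMSO. Of these, 2 rose and 6 fell, and PYK10, a beta-glucosidase gene of roots, made up most of the sum, at 8569.9 ± 10.6 CPM in MBZ and 13995 ± 100.4 CPM in DMSO (SD, n = 4 each). CPM are counts scaled to library size and by TMM, edgeR's normalization for library composition. Markers of green tissue summed to 167 to 174 CPM in MBZ and 219 to 231 CPM in DMSO. Of these 8 genes, 6 fell, 1 rose and 1 did not pass the test. CAB2, a chlorophyll-binding protein gene, had the largest change of the 8. It was near 0 in MBZ at 0.0362 ± 0.0248 CPM, against 3.18 ± 0.614 CPM in DMSO (SD, n = 4 each). The most abundant of the 8, PSBO1, GUN5 and RCA, had log2 fold changes of -0.67, 0.31 and -0.05. Of 8 circadian clock genes 5 rose and 2 fell, and their summed level was 903 to 913 CPM in MBZ and 436 to 443 CPM in DMSO. Among them ELF4, LUX and TOC1 had the smallest p-values and rose by 3.22 (ELF4), 1.79 (LUX) and 1.496 (TOC1) on the log2 scale. The 2 that fell, LHY and CCA1, had log2 fold changes of -3.42 and -2.90. At the threshold given below, 32.9% of all tested genes rose and 33.6% fell. The labels give no time of harvest for either group. The part of cell makeup, green tissue and clock phase in the results below was not tested.

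The family did not move as one. Of the 39 tested members, 19 rose and 18 fell in MBZ at an adjusted p of 0.05 (edgeR's quasi-likelihood test, Benjamini-Hochberg adjustment over all 20867 tested genes). Over all tested genes, 66.5% passed that threshold, 32.9% upward and 33.6% downward. The members' 37 calls make 94.9% of those tested. Large changes were 12 of 39, or 30.8%, against a background of 7.79% of all tested genes that passed and changed at least 2-fold. These 12 divided into 7 rises (17.9% of the members, background 3.89%) and 5 falls (12.8% of the members, background 3.90%). The median absolute log2 fold change was 0.65 over the members and 0.19 over all tested genes. The 4 MBZ values and the 4 DMSO values did not overlap for 32 members (82.1%), against 59.0% of all tested genes, 29.4% with MBZ above and 29.5% with MBZ below.

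Both classes held rises and falls, and the difference between the classes was not tested. Of 27 tested tau genes, 11 rose, 15 fell and 1 did not pass the test, at a median of -0.41 on the log2 scale (range -2.20 to 2.21). Of 12 tested phi genes, 8 rose, 3 fell and 1 did not pass, at a median of 0.42 (range -0.68 to 3.63). The phi median lay between GSTF11 at 0.30 and GSTF12 at 0.53, and GSTF12 was the gene that did not pass. It was 0.23 on the log2(RPKM + 1) scale and 0.26 on the log2(RPKM + 0.1) scale, where GSTF12 has no value. The median over all tested genes was 0.0003. At least 2-fold rises numbered 4 in the tau class and 3 in the phi class. All 5 at least 2-fold falls were of tau genes.

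**Figure D1:**
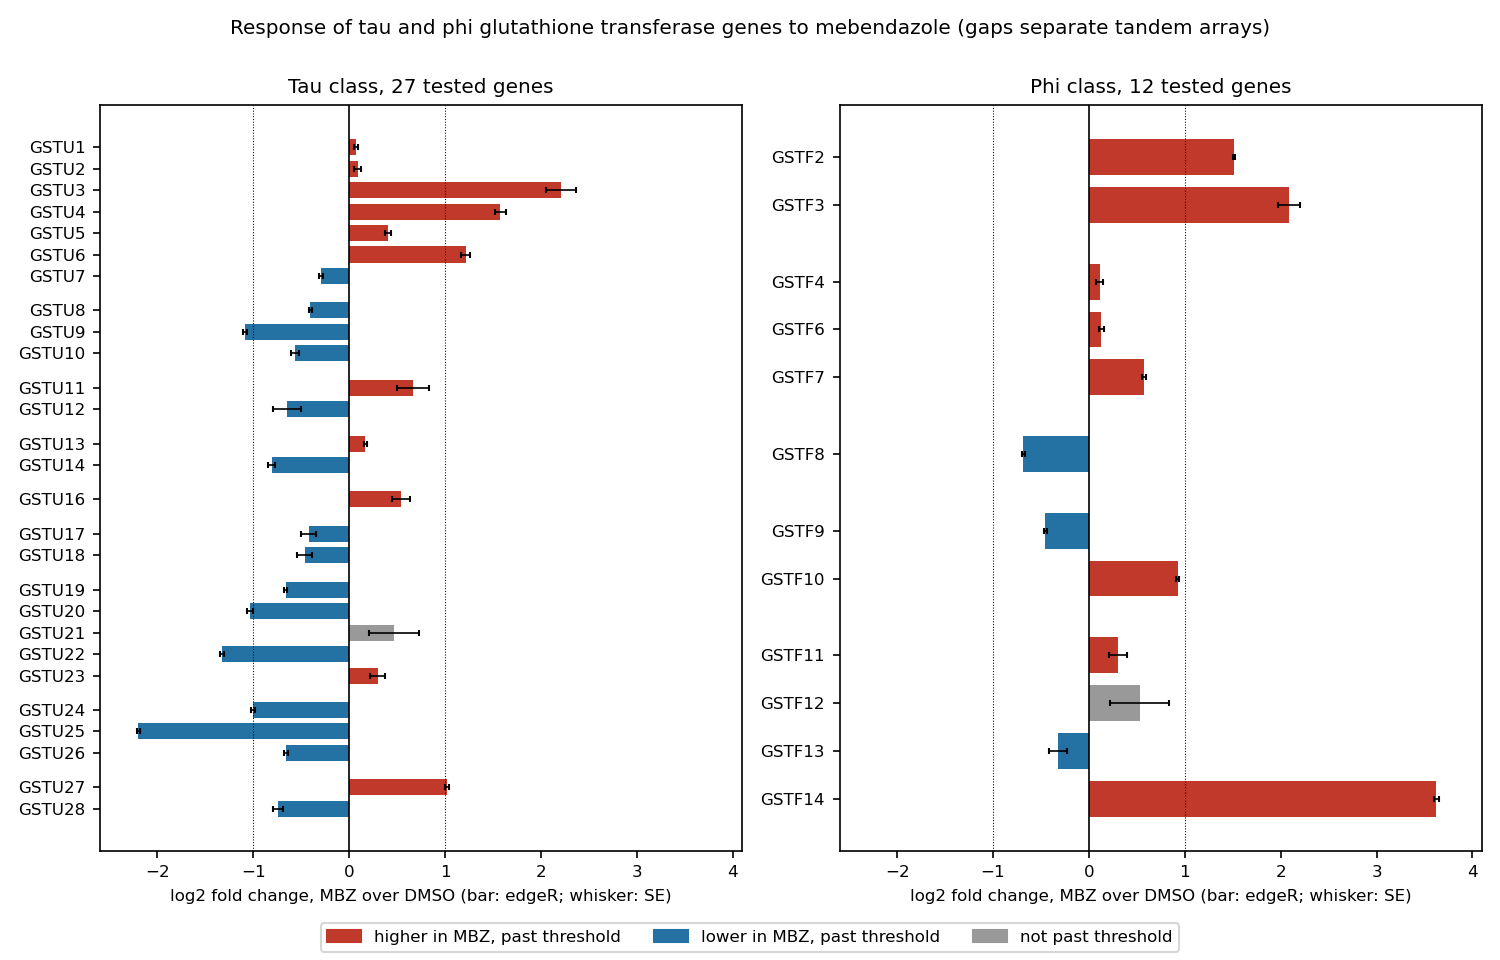
Log2 fold change of MBZ over DMSO (bars, edgeR) with its SE (whiskers) for the 27 tested tau genes and the 12 tested phi genes. Red bars rose, blue bars fell and grey bars did not pass the threshold, dotted lines mark 2-fold, and gaps separate tandem arrays. GSTF14 reaches 3.63 and GSTU25 -2.20, and most arrays with several genes hold bars of unequal length.

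GSTF14 (AT1G49860), a phi gene that stands outside the arrays, had the largest change of all members. Its level was 201, 204, 204 and 197 CPM in the MBZ libraries, against 15.998, 16.3, 17.0 and 15.8 CPM in the DMSO libraries. All 4 MBZ values lay far above every DMSO value. The change was 12.3-fold upward, a log2 fold change of 3.63 ± 0.03 (SE; adjusted p 5.50e-99, edgeR). By RPKM, a level per kilobase of gene, GSTF14 stood at 205 ± 3.09 RPKM in MBZ and 16.7 ± 0.581 RPKM in DMSO (SD, n = 4 each). The promoter is shown because this gene moved most. The window runs from 250 bases before to 50 bases after the annotated gene start (chr1:18458276-18458575, plus strand, TAIR10.1, RefSeq). It holds none of the 6 motifs searched, which are listed further on.
GSTF14: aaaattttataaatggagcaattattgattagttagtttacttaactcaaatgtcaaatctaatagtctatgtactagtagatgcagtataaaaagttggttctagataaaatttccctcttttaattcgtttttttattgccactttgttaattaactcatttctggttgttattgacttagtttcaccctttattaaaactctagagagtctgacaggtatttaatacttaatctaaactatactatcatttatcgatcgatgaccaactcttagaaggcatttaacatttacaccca

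GSTF2 (AT4G02520), whose protein binds indole compounds such as camalexin, had the highest RPKM of all members on average over the 8 libraries. It reached 1866, 1850.2, 1876 and 1864 CPM in MBZ, against 652, 645, 664 and 652 CPM in DMSO. The groups did not overlap, and the rise was 2.85-fold, a log2 fold change of 1.51 ± 0.01 (SE; adjusted p 2.15e-93, edgeR). GSTF3 (AT2G02930) is 94.5% identical to GSTF2 in coding sequence and had 5.69, 4.61, 6.37 and 5.01 CPM in MBZ and 1.06, 1.37, 1.20 and 1.55 CPM in DMSO. All its MBZ values were above its DMSO values, and its log2 fold change was 2.09 ± 0.11 (SE; adjusted p 3.16e-30, edgeR). The longest stretch the coding sequences share is 74 bases, and GSTF3 counts were 0.290% ± 0.0399 of GSTF2 counts in MBZ and 0.198% ± 0.0329 in DMSO (SD, n = 4 each). The GSTF3 value is therefore uncertain, and the part of stray GSTF2 reads in it was not tested. In the TAIR10.1 annotation, TOC159 on the other strand covers 1442 of the 1691 bases of GSTF2. TOC159, a chloroplast import receptor gene, had 192 ± 1.01 CPM in MBZ and 157 ± 3.31 CPM in DMSO (SD, n = 4 each). The strand setting of the counting is not given in the sources used here, and TOC159 counts were 13.9% of GSTF2 counts on average.

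GSTF9 and GSTF10 are neighbours on chromosome 2 with 897 bases between them, and they moved in opposite directions. GSTF10 (AT2G30870), first described as the dehydration-responsive gene ERD13, had 1037, 1056, 1064 and 1037 CPM in MBZ and 549, 549, 555 and 557 CPM in DMSO. The MBZ values were all higher, by 1.90-fold, with a log2 fold change of 0.92 ± 0.01 (SE; adjusted p 2.87e-74, edgeR). GSTF9 (AT2G30860) had 752, 765, 744 and 770.0 CPM in MBZ and 1034, 1029.9, 1043 and 1047 CPM in DMSO. Its MBZ values were all lower, with a log2 fold change of -0.45 ± 0.01 (SE; adjusted p 3.54e-50, edgeR). The log2 ratio of GSTF9 to GSTF10 was -0.47 ± 0.04 in MBZ and 0.91 ± 0.0024 in DMSO (SD, n = 4 each). The coding sequences are 77.6% identical and share no stretch longer than 26 bases.

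The promoters of the pair are set out together because the genes lie side by side and responded in opposite directions. Both windows are on the plus strand of TAIR10.1, at chr2:13141040-13141339 for GSTF10 and chr2:13138632-13138931 for GSTF9. Capitals mark TGACG, the core that TGA factors bind, and GCCGCC, the GCC box bound by ethylene response factors. GSTF10 has 1 TGACG at position -15 from the gene start (first base 1, with no position 0) and GCCGCC at positions -1 and 14. GSTF9 has neither in this window.
GSTF10: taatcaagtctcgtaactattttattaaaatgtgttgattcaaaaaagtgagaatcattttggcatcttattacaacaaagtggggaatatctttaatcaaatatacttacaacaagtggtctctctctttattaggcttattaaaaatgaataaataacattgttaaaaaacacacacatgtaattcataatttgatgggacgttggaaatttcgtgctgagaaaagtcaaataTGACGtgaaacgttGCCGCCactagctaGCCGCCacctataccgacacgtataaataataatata
GSTF9: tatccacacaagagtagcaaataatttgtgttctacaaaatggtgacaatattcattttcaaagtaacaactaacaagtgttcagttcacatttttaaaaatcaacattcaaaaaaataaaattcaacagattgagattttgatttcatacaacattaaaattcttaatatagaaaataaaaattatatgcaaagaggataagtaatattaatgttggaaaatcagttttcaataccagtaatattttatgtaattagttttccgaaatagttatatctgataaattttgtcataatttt

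GSTF8 (AT2G47730), a widely used marker of oxidative and salicylate stress, fell. It had 341, 353, 351 and 347 CPM in MBZ and 539.8, 564, 571 and 561 CPM in DMSO, with no overlap. The log2 fold change was -0.68 ± 0.02 (SE; adjusted p 6.13e-59, edgeR). In the array GSTF4 to GSTF7, the 3 tested genes rose by small amounts. GSTF7 (AT1G02920) averaged 140.3 ± 1.83 CPM in MBZ and 93.9 ± 2.72 CPM in DMSO (SD, n = 4 each), or 0.58 ± 0.02 (SE) as a log2 fold change. GSTF6 (AT1G02930), which acts in camalexin synthesis, averaged 46.4 ± 0.414 CPM in MBZ and 42.4 ± 0.955 CPM in DMSO (SD, n = 4 each), or 0.13 ± 0.03 (SE) as a log2 fold change. The pair is 94.7% identical in coding sequence and shares a stretch of 116 bases, so how their reads were divided is uncertain. With the counts of GSTF6 and GSTF7 added together, the log2 fold change was 0.45. GSTF4 (AT1G02950) had a log2 fold change of 0.11, with an edgeR adjusted p of 0.00913. Under upper-quartile factors its adjusted p was 0.0563, and without DMSO replicate 2 it was 0.0504.

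Among the phi genes tied to named products, GSTF11 (AT3G03190), which acts in aliphatic glucosinolate synthesis, averaged 4.82 ± 0.825 CPM in MBZ and 3.92 ± 0.173 CPM in DMSO (SD, n = 4 each). Its log2 fold change was 0.30 ± 0.09 (SE; adjusted p 0.00236, edgeR), its groups overlapped, and without MBZ replicate 3 the adjusted p was 0.0629. In the annotation all 1096 bases of GSTF11 lie inside NAC045 on the other strand, which had 3.34 ± 0.470 CPM in MBZ and 2.53 ± 0.138 CPM in DMSO (SD, n = 4 each), so reads of these genes cannot be told apart without strand. GSTF12 (AT5G17220), also named TT19 and needed for flavonoid pigment storage in the vacuole, had 0.312, 0.496, 0.472 and 0.329 CPM in MBZ and 0.315, 0.303, 0.240 and 0.236 CPM in DMSO. These groups overlapped, and the edgeR adjusted p was 0.119. It overlaps by 108 bases with PSY, a carotenoid synthesis gene on the other strand with 23.4 ± 0.891 CPM in MBZ and 15.1 ± 0.908 CPM in DMSO (SD, n = 4 each). GSTF13 (AT3G62760) fell, with 3.365 ± 0.357 CPM in MBZ and 4.22 ± 0.173 CPM in DMSO (SD, n = 4 each).

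**Figure D2:**
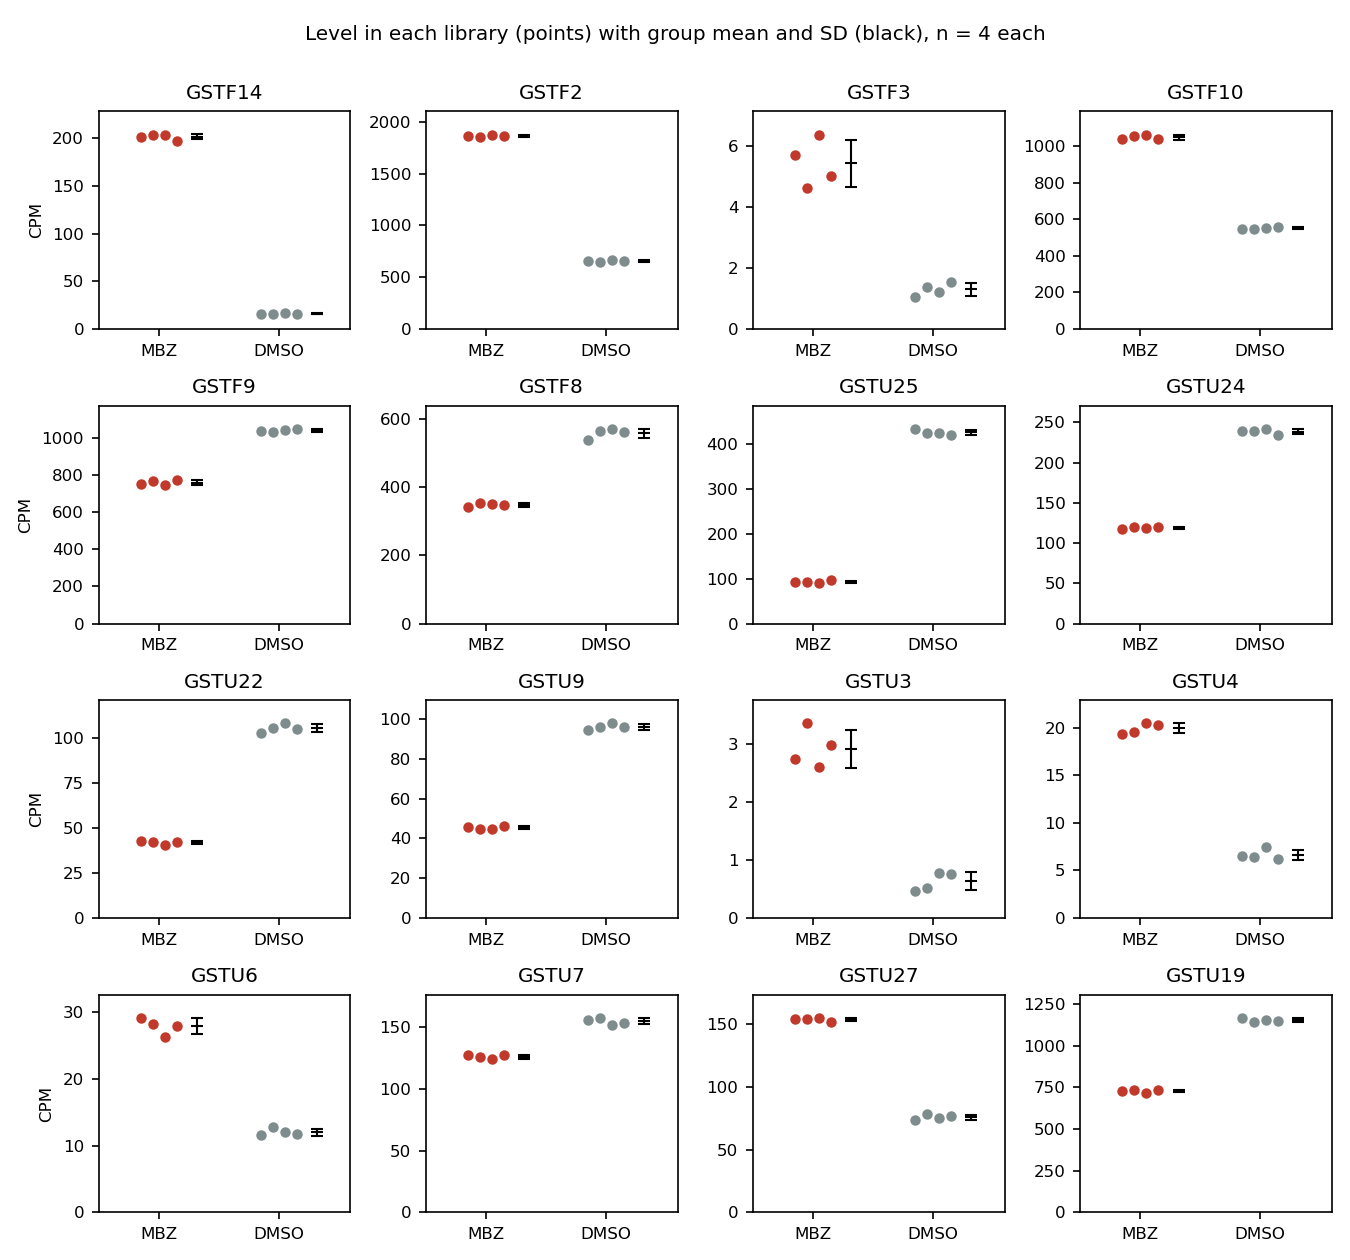
Level in CPM of 16 members in each library, with MBZ (red) left of DMSO (grey) and the group mean and SD in black (n = 4 each). In every panel the 4 points of each group stay apart from the other group's. GSTF14, GSTF2, GSTF3, GSTF10, GSTU3, GSTU4, GSTU6 and GSTU27 were higher in MBZ, and the remaining 8 genes were lower.

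The array GSTU24 to GSTU26, which holds genes known from detoxification, fell throughout. GSTU24 and GSTU25 encode enzymes that conjugate the explosive trinitrotoluene in Arabidopsis. GSTU25 (AT1G17180) had 91.7, 92.3, 91.0 and 96.6 CPM in MBZ and 433, 425, 426 and 420.2 CPM in DMSO. It was lower in all MBZ libraries, 4.59-fold by the fit, with a log2 fold change of -2.20 ± 0.02 (SE; adjusted p 3.06e-94, edgeR). GSTU24 (AT1G17170) had 117, 120.4, 119 and 119 CPM in MBZ and 239, 239, 242 and 234 CPM in DMSO. Its groups did not overlap, and its log2 fold change was -1.005 ± 0.018 (SE; adjusted p 1.05e-66, edgeR). GSTU26 (AT1G17190) averaged 103 ± 2.16 CPM in MBZ and 163 ± 2.46 CPM in DMSO (SD, n = 4 each), or -0.66 ± 0.02 (SE) as a log2 fold change. Per kilobase, GSTU25 stood at 108 ± 2.93 RPKM in MBZ, within the spread of GSTU26 at 109.9 ± 2.35 RPKM and below GSTU24 at 139 ± 1.76 RPKM. In DMSO it was the highest of the array, at 503 ± 6.67 RPKM, against 282 ± 4.16 for GSTU24 and 176 ± 2.30 for GSTU26 (SD, n = 4 each). Summed over the array, the level was 313, 316, 314 and 316 CPM in MBZ, against 836, 828, 827 and 819 CPM in DMSO.

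The promoters of GSTU25 and GSTU24 are printed since these neighbours, 80.5% identical in coding sequence, fell by different amounts. Both windows are on the plus strand of TAIR10.1, at chr1:5871774-5872073 for GSTU25 and chr1:5869293-5869592 for GSTU24. Each holds 1 TGACG, in capitals, at position -87 in GSTU25 and -169 in GSTU24. GSTU26 holds none in the same window.
GSTU25: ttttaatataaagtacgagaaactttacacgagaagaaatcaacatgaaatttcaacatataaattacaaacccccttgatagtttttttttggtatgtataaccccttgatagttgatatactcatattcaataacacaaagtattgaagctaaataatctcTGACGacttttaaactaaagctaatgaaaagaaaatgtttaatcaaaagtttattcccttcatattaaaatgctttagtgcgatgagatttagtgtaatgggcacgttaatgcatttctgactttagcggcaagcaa
GSTU24: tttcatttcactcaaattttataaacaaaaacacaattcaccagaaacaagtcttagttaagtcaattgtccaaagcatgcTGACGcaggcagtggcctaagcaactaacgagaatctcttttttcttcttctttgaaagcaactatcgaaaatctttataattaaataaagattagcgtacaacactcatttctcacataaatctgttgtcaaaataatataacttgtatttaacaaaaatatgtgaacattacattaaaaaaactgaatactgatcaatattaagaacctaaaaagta

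In the array GSTU19 to GSTU23, GSTU19, GSTU20 and GSTU22 fell, GSTU23 rose and GSTU21 did not pass the test. GSTU19 (AT1G78380), an enzyme active on chloroacetanilide herbicides and the most abundant tau gene, had 728, 734, 717 and 734 CPM in MBZ and 1166, 1144, 1154 and 1148 CPM in DMSO. All MBZ values were lower, with a log2 fold change of -0.66 ± 0.01 (SE; adjusted p 1.08e-63, edgeR). GSTU20 (AT1G78370), which acts in aliphatic glucosinolate synthesis and binds the jasmonate enzyme FIN219, had 25.0, 24.8, 24.2 and 23.0 CPM in MBZ and 50.6, 49.4, 47.2 and 52.1 CPM in DMSO. Its groups stood apart, with a log2 fold change of -1.03 ± 0.03 (SE; adjusted p 1.01e-46, edgeR). GSTU22 (AT1G78340) had 43.0, 42.4, 40.7 and 42.2 CPM in MBZ and 103, 106, 108 and 105 CPM in DMSO. It fell most in this array, with a log2 fold change of -1.33 ± 0.02 (SE; adjusted p 1.94e-65, edgeR). GSTU23 (AT1G78320) had 6.81, 7.16, 5.42 and 6.42 CPM in MBZ and 4.998, 5.19, 5.48 and 5.40 CPM in DMSO. It rose by 0.30 on the log2 scale (edgeR adjusted p 5.34e-04), although MBZ replicate 3 lay within the DMSO range. GSTU21 (AT1G78360) had 0.569, 0.615, 0.540 and 0.556 CPM in MBZ and 0.374, 0.464, 0.240 and 0.629 CPM in DMSO. These were 22 to 31 counts per MBZ library and 13 to 24 per DMSO library; the groups overlapped, and the edgeR adjusted p was 0.108. Without DMSO replicate 4 that p was 0.0317.

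In the array GSTU1 to GSTU7 on chromosome 2, 6 genes rose and 1 fell. The summed level of this array changed little, from 343 ± 1.77 CPM in DMSO to 362 ± 3.83 CPM in MBZ (SD, n = 4 each). The ratio of these means, MBZ over DMSO, was 1.05. GSTU3 (AT2G29470) had 2.74, 3.356, 2.61 and 2.98 CPM in MBZ and 0.472, 0.525, 0.777 and 0.760 CPM in DMSO. These were 116 to 149 counts per MBZ library and 24 to 42 per DMSO library, with no overlap, and the log2 fold change was 2.21 ± 0.16 (SE; adjusted p 2.58e-23, edgeR). GSTU4 (AT2G29460) had 19.4, 19.6, 20.5 and 20.4 CPM in MBZ and 6.49, 6.397, 7.45 and 6.23 CPM in DMSO. The rise was 2.98-fold, a log2 fold change of 1.58 ± 0.06 (SE; adjusted p 2.90e-44, edgeR). GSTU6 (AT2G29440) had 29.1, 28.2, 26.3 and 27.9 CPM in MBZ and 11.6, 12.8, 12.0 and 11.8 CPM in DMSO. Its groups did not overlap, and its log2 fold change was 1.21 ± 0.04 (SE; adjusted p 8.33e-43, edgeR).

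The remaining genes of that array changed less. GSTU5 (AT2G29450) had 33.2, 32.2, 32.3 and 32.1 CPM in MBZ and 24.5, 24.4, 24.4 and 25.0 CPM in DMSO, a log2 fold change of 0.40 ± 0.04 (SE). GSTU7 (AT2G29420), at the other end of the array from GSTU1, had 128, 126, 124 and 127 CPM in MBZ and 155, 157, 152 and 154 CPM in DMSO. It was the gene that fell, with a log2 fold change of -0.29 ± 0.02 (SE; adjusted p 2.20e-25, edgeR). GSTU1 (AT2G29490) had 124, 129, 123 and 128 CPM in MBZ and 118, 117, 122 and 124 CPM in DMSO, and GSTU2 (AT2G29480) had 25.9, 27.2, 27.3 and 25.6 CPM in MBZ and 25.9, 24.4, 24.5 and 25.0 CPM in DMSO. The groups of both overlapped, with log2 fold changes of 0.07 for GSTU1 and 0.09 for GSTU2 and edgeR adjusted p-values of 0.00147 and 0.0347. The call of GSTU2 was lost in 7 of 19 other settings, over which its adjusted p ran from 0.0160 to 0.169. That of GSTU1 was lost under upper-quartile factors, with an adjusted p of 0.0648.

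Of the tau pairs, 2 divided in direction. GSTU13 (AT1G27130), which acts in indole glucosinolate metabolism, had 229, 236, 229 and 233 CPM in MBZ and 204, 208, 207 and 208 CPM in DMSO. It rose by 0.17 on the log2 scale, with no overlap between the groups (edgeR adjusted p 6.22e-15). Its neighbour GSTU14 (AT1G27140), 88.0% identical in coding sequence, had 19.9, 19.0, 19.6 and 21.0 CPM in MBZ and 34.7, 35.2, 35.1 and 33.7 CPM in DMSO. It fell, with a log2 fold change of -0.81 ± 0.04 (SE; adjusted p 1.66e-35, edgeR). GSTU11 (AT1G69930) had 1.54, 1.63, 1.71 and 1.44 CPM in MBZ and 0.708, 0.948, 1.22 and 1.13 CPM in DMSO, a rise of 0.66 on the log2 scale. GSTU12 (AT1G69920) had 1.16, 1.42, 1.46 and 1.24 CPM in MBZ and 1.55, 2.08, 2.40 and 2.23 CPM in DMSO, a log2 fold change of -0.65. Both were at low level, with 36 to 84 counts per library for GSTU11 and 49 to 130 for GSTU12. GSTU17 and GSTU18 fell together, with log2 fold changes of -0.42 and -0.46. GSTU17 (AT1G10370) is the dehydration-responsive gene ERD9, and it overlaps GSTU18 (AT1G10360) by 71 bases in TAIR10.1. GSTU16 (AT1G59700) rose by 0.54.

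Of the tau genes outside arrays, GSTU9 and GSTU27 passed 2-fold in opposite directions. GSTU9 (AT5G62480) had 45.6, 44.6, 44.7 and 46.2 CPM in MBZ and 94.3, 96.1, 97.8 and 96.1 CPM in DMSO, a log2 fold change of -1.09 ± 0.02 (SE; adjusted p 7.77e-59, edgeR). GSTU27 (AT3G43800) had 154, 154, 155 and 151 CPM in MBZ and 73.2, 78.1, 74.9 and 76.6 CPM in DMSO, a log2 fold change of 1.02 ± 0.02 (SE; adjusted p 3.48e-62, edgeR). Neither gene's groups overlapped. The log2 fold change of GSTU27 ran from 0.992 to 1.04 over 19 other settings. Its 2-fold call therefore did not hold in all of them. GSTU8, GSTU10 and GSTU28 fell, with log2 fold changes of -0.41, -0.57 and -0.75. GSTU10 overlaps by 279 bases with AT1G74580 on the other strand, which had 9.12 ± 0.524 CPM in MBZ and 8.55 ± 0.357 CPM in DMSO (SD, n = 4 each).

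Whether neighbours responded by different amounts was tested directly. For each of 17 pairs of consecutive tested members in the arrays, the log2 ratio of their levels (CPM + 0.1) was compared between groups by an exact permutation test over the 8 libraries, two-sided and adjusted over the 17 pairs. With 4 libraries against 4, the smallest p the test can give is 0.0286. In 14 pairs the ratio differed at that smallest value (exact permutation, adjusted p 0.0347), which makes 82.4% of the pairs. The share was 57.8% over all 20798 pairs of tested genes that follow each other on a chromosome. The smallest p means that the 4 MBZ ratios and the 4 DMSO ratios did not overlap. For single genes, the groups did not overlap in 82.1% of tested members and 59.0% of all tested genes. These shares are close to those of the pairs, so the 14 pairs alone are no result about the arrays. Some member pairs differ from these by having another coding gene between them, as GSTU7 and GSTU6 do. The ratio moved by at least 1 on the log2 scale in 10 pairs (58.8%), against 13.0% of all consecutive pairs. Single members also changed at least 2-fold more often than all tested genes, 30.8% against 7.79%. How far the ratio shares follow from this was not tested. Pairs share genes, and GSTU21, which did not pass the test, is in some of the 10. In 5 pairs (29.4%) 1 gene rose and the other fell, against 19.4% of all consecutive pairs, so opposite calls alone are no result about the arrays. These were GSTU7 and GSTU6, GSTU12 and GSTU11, GSTU13 and GSTU14, GSTU23 and GSTU22, and GSTF9 and GSTF10. The ratio of GSTF9 to GSTF10 moved by -1.38, that of GSTU25 to GSTU26 by -1.53, that of GSTU24 to GSTU25 by 1.19 and that of GSTU23 to GSTU22 by 1.61 (MBZ minus DMSO, log2).

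The 3 pairs that did not pass were GSTU2 and GSTU1, GSTU18 and GSTU17, and GSTU4 and GSTU3. The log2 ratio of GSTU2 to GSTU1 was -2.24 ± 0.06 in MBZ and -2.26 ± 0.06 in DMSO (SD, n = 4 each; exact permutation, adjusted p 0.771). That of GSTU18 to GSTU17 was -0.04 ± 0.16 in MBZ and -0.01 ± 0.13 in DMSO (SD, n = 4 each; exact permutation, adjusted p 0.759). That of GSTU4 to GSTU3 was 2.74 ± 0.17 in MBZ and 3.22 ± 0.29 in DMSO (SD, n = 4 each; exact permutation, adjusted p 0.0648). With 1 CPM added in place of 0.1 this difference changed sign, to 0.19. For the near-identical GSTF7 and GSTF6 the ratio moved by 0.45.

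Summed over the members, the phi class gained and the tau class lost level. The 13 phi genes together had 4427, 4449, 4463 and 4439 CPM in the MBZ libraries, against 2957, 2972, 3023 and 2999 CPM in the DMSO libraries. The 28 tau genes together had 2172, 2199, 2155 and 2186 CPM in MBZ, against 3232, 3229, 3238 and 3228 CPM in DMSO. The ratio of means, MBZ over DMSO, was 1.49 for phi and 0.674 for tau. GSTF2 alone averaged 1864 CPM in MBZ and 653 CPM in DMSO, so most of the phi gain was of this gene. In the tau sum, GSTU19 averaged 728 CPM in MBZ and 1153 CPM in DMSO, and GSTU25 92.9 CPM in MBZ and 426 CPM in DMSO. Of the 27 tested tau genes 11 rose and 15 fell, so the loss was not shared by the whole class. These sums are described without a test. The MBZ and DMSO libraries did not overlap in either sum.

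The makeup of each class differed between groups. GSTF2 made up 41.9% ± 0.249 of the phi sum in MBZ and 21.9% ± 0.164 in DMSO. GSTF9 made up 17.0% ± 0.293 in MBZ and 34.8% ± 0.215 in DMSO, and GSTF8 7.83% ± 0.0989 in MBZ and 18.7% ± 0.317 in DMSO. GSTF14 held 4.53% ± 0.0584 in MBZ and 0.545% ± 0.0147 in DMSO. GSTU19 took a slightly lower part of the tau sum in MBZ, 33.4% ± 0.135 in MBZ and 35.7% ± 0.279 in DMSO, while GSTU25 took 4.26% ± 0.103 in MBZ and 13.2% ± 0.165 in DMSO (all SD, n = 4 each).

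**Figure D3:**
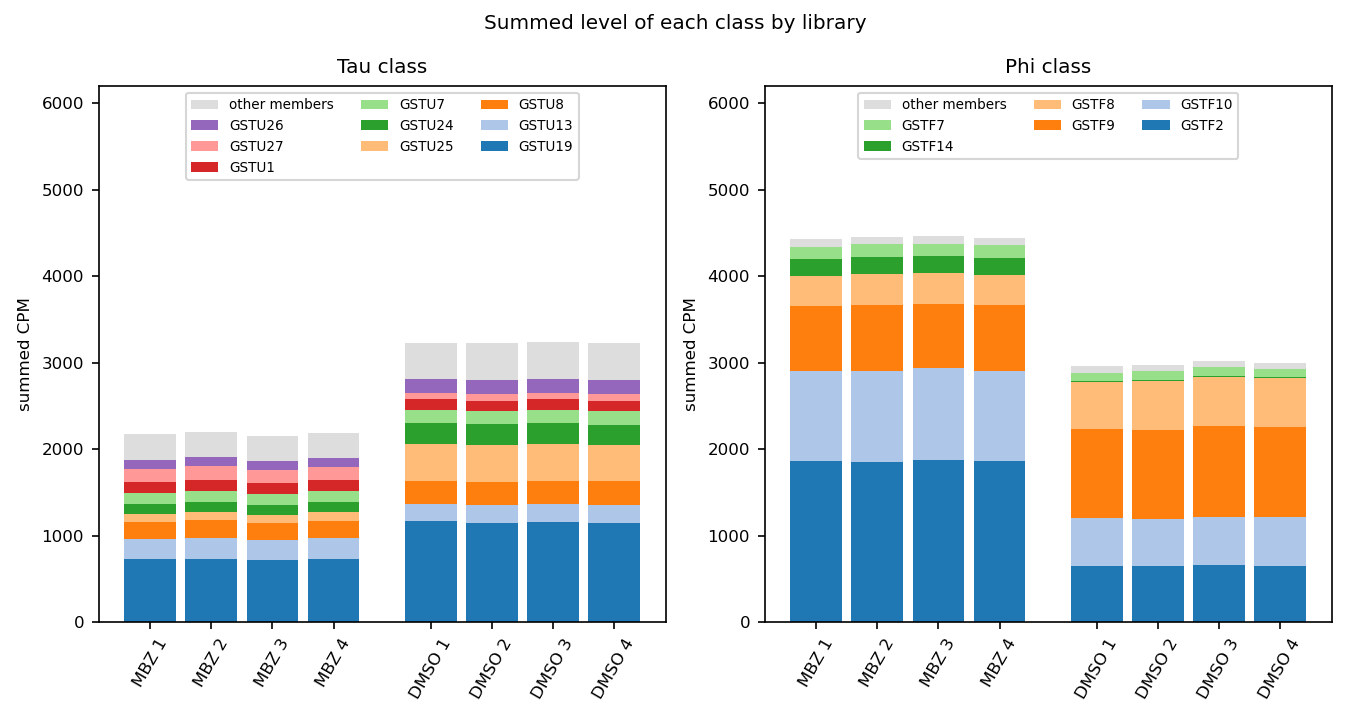
Summed level in CPM of the tau class (left) and the phi class (right) in each library, MBZ libraries left of DMSO libraries, with the most abundant members as coloured segments and the rest in grey. Phi sums lie at 4427 to 4463 CPM in MBZ and 2957 to 3023 CPM in DMSO, and tau sums at 2155 to 2199 CPM in MBZ and 3228 to 3238 CPM in DMSO.

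Levels per kilobase, from the RPKM values of the authors, allow the members to be ranked. The RPKM table holds 36 of the 41 members; GSTU11, GSTU15, GSTU21, GSTF5 and GSTF12 are outside it. In MBZ the highest phi genes were GSTF2 at 1885 ± 10.8 RPKM, GSTF10 at 1047 ± 14.0 RPKM and GSTF9 at 780.5 ± 12.0 RPKM (SD, n = 4 each). In DMSO the order was GSTF9 at 1081 ± 8.62 RPKM, GSTF2 at 668 ± 9.12 RPKM and GSTF10 at 558 ± 4.55 RPKM (SD, n = 4 each). Neighbouring genes in these orders stood apart by more than their SD. GSTU19 led the tau class in both groups, at 733 ± 7.70 RPKM in MBZ and 1174 ± 10.2 RPKM in DMSO (SD, n = 4 each). The second tau gene was GSTU8 in MBZ, at 237 ± 5.04 RPKM, and GSTU25 in DMSO, at 503 ± 6.67 RPKM (SD, n = 4 each).

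The promoter windows of all 41 members were searched on both strands for 6 motifs, beside the windows of 27443 protein-coding genes of TAIR10.1. TGACG was present in 17 members (41.5%), against 23.1% of all windows. The 17 were not of one direction: 8 rose and 9 fell. Of the 24 members without it, 11 rose, 9 fell and 4 were not called. GCCGCC was in 4 members (9.76%), against 2.57% of all windows, and 2 of the 4 rose and 2 fell. TTGACC, the core of the W-box of WRKY factors, was in 9 members (22%) and 14.2% of all windows, with 4 rises and 4 falls. Its letters can overlap those of TGACG. The G-box CACGTG was in 3 members (7.32%) and 7.68% of all windows. The clock motifs AAAATATCT and AAAAATCT were in 0 members, against 2.82% and 7.88% of all windows. A match describes letters in the window, not binding, and members of 1 array share ancestry. The 3 members with more than 1 TGACG core were GSTU7, with 3 at positions -61, -52 and -49, GSTU1, with 2 at -77 and -65, and GSTU9, with 2 at -144 and -99.

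The other genes of glutathione metabolism and detoxification were read from lists chosen with earlier results of these data known. Of 11 genes of xenobiotic detoxification, 10 fell and 1 rose, beside a background of 33.6% lower and 32.9% higher. The median log2 fold change was -0.69, against 0.0003 over all tested genes. CYP81D8, a cytochrome P450 gene, averaged 4.31 ± 0.397 CPM in MBZ and 26.5 ± 0.555 CPM in DMSO (SD, n = 4 each); the log2 change was -2.61 ± 0.06 (SE; adjusted p 1.34e-60, edgeR). UGT74E2, a glucosyltransferase gene, averaged 21.7 ± 0.593 CPM in MBZ and 74.9 ± 1.91 CPM in DMSO (SD, n = 4 each), or -1.79 as a log2 fold change. CYP81D11 averaged 109 ± 1.32 CPM in MBZ and 233 ± 4.22 CPM in DMSO (SD, n = 4 each), or -1.09 as a log2 fold change. The exception was the transcription factor gene NAC102, with 0.33.

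The 4 vacuolar conjugate transporter genes all fell, with a median log2 fold change of -0.57. Over all tested genes 33.6% fell and 32.9% rose. ABCC1 averaged 327 ± 2.05 CPM in MBZ and 472 ± 5.40 CPM in DMSO (SD, n = 4 each), or -0.53 as a log2 fold change. ABCC4 and ABCC3 had log2 fold changes of -0.60 and -0.65. Of 6 tested genes of glutathione synthesis and turnover, 1 rose, 4 fell and 1 did not pass. The riser was GSH2, glutathione synthetase, at 182 ± 4.36 CPM in MBZ and 111 ± 1.43 CPM in DMSO (SD, n = 4 each; edgeR adjusted p 2.22e-52). GR1, a glutathione reductase, and GGT4, a gamma-glutamyl transferase, had log2 fold changes of -0.36 and -0.40. GSH1, which makes the first step of glutathione synthesis, had a log2 fold change of -0.02 (edgeR adjusted p 0.312).

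The smaller glutathione transferase classes include the zeta, theta, lambda and dehydroascorbate reductase genes. Of their 12 genes, 3 rose, 3 fell and 6 did not pass, with a median absolute log2 fold change of 0.07, against 0.65 over the tau and phi members. The largest change was of the lambda gene GSTL1, at 10.5 ± 0.5002 CPM in MBZ and 31.5 ± 1.40 CPM in DMSO (SD, n = 4 each); the log2 change was -1.58 ± 0.04 (SE; adjusted p 2.14e-51, edgeR). DHAR1, a dehydroascorbate reductase, and GSTZ1, a zeta gene, had log2 fold changes of -0.45 and 0.17. Of the 7 TGA factor genes, 6 rose and 1 did not pass, while SCL14 fell. Over all tested genes 32.9% rose and 33.6% fell. The rises of TGA2, TGA5, TGA6 and TGA7 were small, at log2 fold changes of 0.10, 0.14, 0.17 and 0.21. TGA1 and TGA4 had log2 fold changes of 0.34 and 0.30, and SCL14 of -0.26. None of these 8 reached 2-fold.

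**Figure D4:**
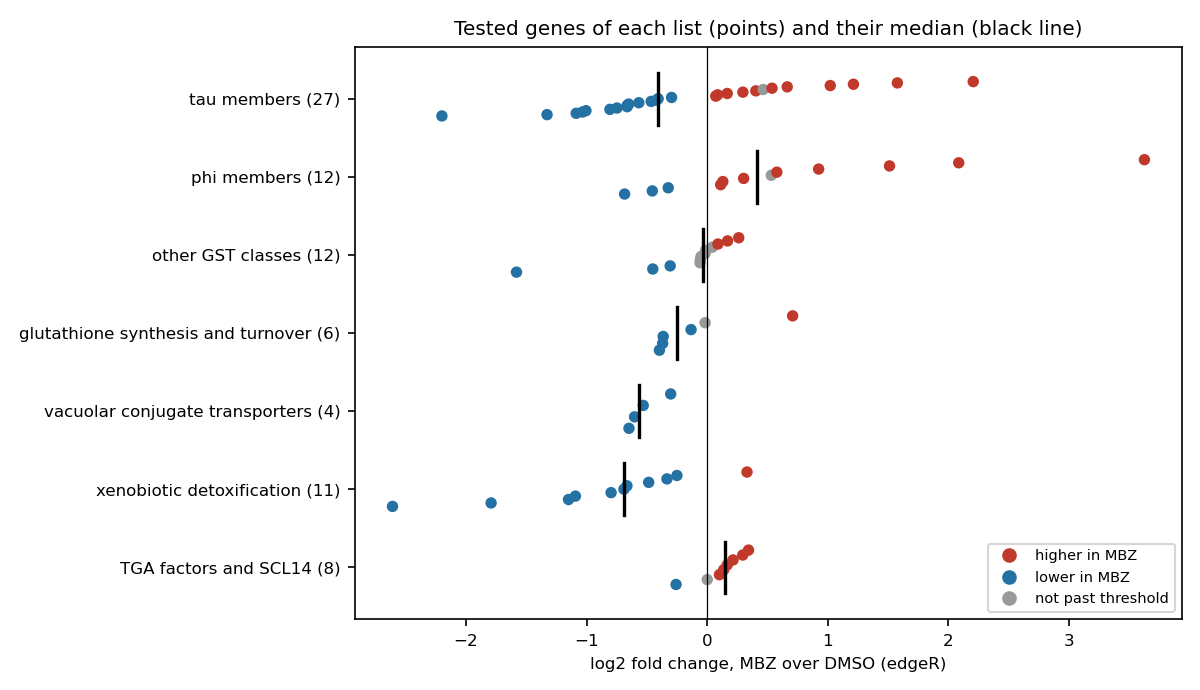
Log2 fold change of MBZ over DMSO for each tested gene (points) of the tau and phi classes and of 5 related lists, with the median of each as a black line and the number tested in brackets. Red points rose, blue points fell and grey points did not pass the threshold. The detoxification list lies left of 0 apart from 1 gene, and tau and phi genes lie on both sides.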

How the data were processed

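The authors deposited raw read counts per gene (33602 genes) and RPKM values (reads per kilobase, scaled to library size) for 17872 of them. The submitters' processing notes name STAR 2.7.0a, edgeR 3.36.0 and genome build TAIR10; the counting program and strand setting are not given in the sources used here. RPKM over count was a gene constant times a sample constant (largest relative deviation 6.44e-15), and 0 columns lacked a sample. Groups and replicate numbers came from the titles. Column names of MBZ samples lack the drug's name and were matched through the descriptions.

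Counts were tested with edgeR 4.0.16 (R 4.3.3): quasi-likelihood test, TMM factors, filterByExpr, group as the factor, all 8 libraries and 20867 genes. SE is the log2 fold change over the square root of F. On simulated counts the test recovered 93.8% of log2 changes of 0.5 and 100% of those of 1. The simulation changed 200 genes, whereas 66.5% of all tested genes passed the threshold in the real data. Recovery with so many changed genes was not tested. No replicate pair was a duplicate (chi-square per degree of freedom 1.6 to 2.41). Alternatives used DESeq2 1.42.0 and limma 3.58.1, limma also on log2(RPKM + 1) or log2(RPKM + 0.1). Exact permutation tests used scipy 1.17.1. The background of the neighbour ratios, added after their values were seen, takes all consecutive tested genes by RefSeq start.

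Names and sequences came from RefSeq, assembly TAIR10.1 (41 of 41 members matched). The deposited files hold no coordinates, and those printed are TAIR10.1. Coding identity was taken from global alignments. Values in every library are given for members past the threshold with at least a 2-fold change and a mean of at least 50 counts, for arrays with calls in both directions, and for the most abundant gene of each class. Values of GSTF8 and GSTF12 in each library were added after they were seen. Of each pathway list the 3 genes with the smallest p are named; NAC102 and GSH1 were added after their values were seen. The members and lists were chosen with earlier results of these data known.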

Additional observations from a re-analysis of the deposited data

Results flagged for a closer look

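For each gene and group, the most distant of the 4 values was judged by its gap to the nearest value over the range of the 4, against Dixon's critical value. This was done for the 41 members and the 2 class sums in both groups, 86 groups in all. Of these, 6 stood out (6.98%), and chance gives about 5%. GSTU5 was high in MBZ replicate 1, at 33.2 CPM against 32.1 to 32.3 in the others (ratio 0.866). GSTF4 was low in MBZ replicate 2, at 23.0 CPM against 24.6 to 24.8 (ratio 0.894). GSTU8 was low in DMSO replicate 1, at 259 CPM against 270.5 to 273 (ratio 0.832). GSTU16 was high in DMSO replicate 1, at 3.64 CPM against 3.03 to 3.07 (ratio 0.929). GSTU15, which was not tested, was high in DMSO replicate 1, at 0.118 CPM against 0.0524 to 0.0605 (ratio 0.876). GSTF5 had counts in DMSO replicate 4 alone, which gives a ratio of 1. Of the 6 deviations, 3 were in DMSO replicate 1.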

How the results depend on the processing

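Of the 39 tested members, 34 kept their direction and their side of the threshold in every setting run, at most 20 each, and no member reversed. The other members were GSTU1, GSTU2, GSTU21, GSTF4 and GSTF11. Leaving out each library in turn gave 17 to 20 members higher and 18 lower, 7 at least 2-fold higher, and 4 to 5 at least 2-fold lower. With a replicate block, members higher and lower stayed at 19 and 18 and genes past the threshold numbered 13786, against 13877. No effect shared by libraries of equal number was seen in their deviations from the group means. These correlated at -0.0191 on average between libraries of the same number and at 0.00636 between those of different numbers. The labels do not say whether samples of equal number were handled together, and these correlations cannot settle it. Genes past the threshold and at least 2-fold changed fell to 841 with log2(RPKM + 1) and to 834 with a mean of at least 1 RPKM, against 1625, or 1124 among genes of the RPKM table. The phi median was 0.42. It was 0.23 with these 2 settings, 0.26 with log2(RPKM + 0.1), and 0.30 with a mean of at least 50 counts or no count filter. The RPKM table does not hold GSTF12, whose mean of 15.6 counts is also below 50. With no count filter, GSTU15 and GSTF5 enter the medians. With no count filter the tau median was -0.35. With library size alone the summed level was 4419 CPM for phi in MBZ and 3250.4 CPM for tau in DMSO. The settings differ in scale, in scaling factors or in the genes they hold, and the separate parts of these in the shifts were not tested. Neighbour ratios past the threshold numbered 14 of 17 with 1 CPM added, 15 of 17 with nothing added and 11 of 14 from RPKM. The change in the ratio of GSTU4 to GSTU3 was -0.49, 0.19 with 1 CPM added and -0.64 (adjusted p 0.0324, exact permutation) with nothing added. Paired and leave-one-out forms of that test were not run, since their smallest p-values are 0.125 and 0.0571. Depth limits GSTU15, GSTF5, GSTF12 and GSTU21.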
